A study of Mus musculus with 8 samples.

Results

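The TNF receptors, their first adaptor proteins, the IkB kinase (IKK) subunits and the NF-kB subunits were examined by bulk RNA-seq in sorted Paneth cells (PCs), which sit at the bottom of small intestinal crypts and secrete antimicrobial peptides. They were chosen as a named list of 10 genes, Tnfrsf1a, Tnfrsf1b, Tradd, Traf2, Ikbkb, Ikbkg, Rela, Nfkb1, Relb and Nfkb2, out of 55414 genes in the count table, and together they held 0.0775% of all counts. The 8 libraries each came from 1 mouse, and C57BL/6J is the strain the study's methods give for its sorted PCs. In the control group 4 mice drank Milli-Q water (purified laboratory water) for 7 days, and in the zinc group 4 mice drank water with 25 mM ZnSO4 for the same time. By the labels all 8 mice were injected with TNF and PCs were collected 3 hours later, so no level before TNF was measured. In the library labelled zinc replicate 3 several genes known to respond to TNF were far below every other library (Icam1 at 0 counts, Tnf at 1 count). Of 11 TNF response targets tested, 8 were over 2-fold below the lowest other library, beside 6.14% of all genes tested, and 1, Tnfaip2, was highest in it. Whether that mouse received TNF or responded to it was not tested. Its values, and each zinc mean that holds them, are to be read with that limit.

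TNF binds TNFR1, encoded by Tnfrsf1a, and TNFR2, encoded by Tnfrsf1b. The adaptors TRADD and TRAF2 gather at the bound receptor, the IKK complex is switched on there, and IKK marks the inhibitor IkB-alpha for destruction, which frees the NF-kB dimers of RelA and p50. A slower, alternative branch processes the Nfkb2 product p100 to p52, the partner of RelB. Nfkb2 and Relb are themselves known targets of NF-kB, whereas Rela, the receptor Tnfrsf1a and the IKK genes are usually described as constitutive. In bulk RNA a lower level can come from fewer cells of a type or from less RNA per cell, and these cannot be told apart.

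The library labelled zinc replicate 3 stood apart. Its correlation with the other libraries across all genes tested was 0.847 to 0.903, and several genes of the list were far lower in it than in any other mouse. The 10 Paneth cell markers summed to 471655 CPM (counts made comparable between libraries by TMM scaling) in it against 396264 to 743070 CPM in the other 7, and Lyz1, the Paneth cell lysozyme, was at 142038 CPM against 133076 to 213550 CPM. Within that list Reg3g, an antibacterial lectin, was at 662 CPM against 1999.6 to 7697 CPM, and Pnliprp2 and Habp2 were highest in zinc 3. Enterocyte markers summed to 239 CPM against 26.9 to 89.3 CPM, and all 8 of those tested were highest in it.

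Crypt stem cell markers summed to 1163 CPM in zinc 3 against 438 to 1127 CPM, a sum that rests mostly on Olfm4, and 5 of 7 tested were highest in it. Lgr5 was at 52.3 CPM against 7.02 to 22.6 CPM, Rgmb at 142 against 23.0 to 49.6 CPM and Axin2 at 47.9 against 4.40 to 22.9 CPM. Goblet cell markers summed to 10731 CPM against 10603 to 15643 CPM, mostly Muc2 and Spink4, but their mean log2(CPM + 1) was highest in zinc 3 (8.41 against 7.44 to 8.08). Of the 9, 3 were highest in it, among them Fcgbp at 1270.0 CPM against 59.8 to 318 CPM. The 2 lowest in it were Ccl9 (186 against 283 to 534 CPM) and Retnlb (2.25 against 4.56 to 16.7 CPM). The summed leukocyte markers were at 32.5 CPM against 37.9 to 102 CPM, with Cd3g, Trac, Itgax, Adgre1 and S100a8 at 0 in all libraries. For stromal and endothelial markers the sum was 0.211 CPM against 0 to 0.596 CPM, with 7 of 10 at 0, and for enteroendocrine and tuft cell markers 13.1 CPM against 7.58 to 19.8 CPM.

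Some markers also differed between the groups without zinc 3. Of the 7 stem cell markers tested 4 were higher in zinc at an unadjusted p under 0.05 in edgeR, beside 4.34% of all genes. The median log2 fold change of the 7 was 0.78, with Axin2 at 1.24 and Mki67 at 1.01. Zinc 4 lay within the water range for Axin2 (5.08 against 4.40 to 7.25 CPM), Lgr5 (8.55 against 7.02 to 13.0 CPM) and Mki67 (10.4 against 5.44 to 12.7 CPM). For Rgmb it lay just above that range (25.7 against 23.0 to 25.0 CPM). Muc2, the goblet cell mucin, was at a log2 fold change of 1.10, but 5 of the 9 goblet cell markers had a lower fitted value (median -0.23). Cd74, a gene of antigen presentation, was at -1.53. The part of these differences in the results below was not tested, and the fold changes are given with and without zinc 3.

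Nfkb2 was the one gene of the list with matches to the NF-kB (kB) consensus of 10 bases near its starts, among the 6 genes that the RefSeq promoter table held (Tnfrsf1a, Tnfrsf1b, Traf2, Rela, Nfkb2 and Ikbkg). The table gives 250 bases before and 50 after each start on GRCm38.p6, and the windows were placed on GRCm39 by exact match. Tradd, Relb, Nfkb1 and Ikbkb were not in it. Nfkb2 lies on chromosome 19 with 3 starts in the table, and each of its 3 windows held a match. The pair at the first start overlap each other from bases -39 and -38, a further match begins at base -11, and all of them lie in the first exon of longer GENCODE transcripts. They are shown because Nfkb2 is a gene of the alternative branch that NF-kB itself acts on, with the matches in capitals, 5′ to 3′ on the plus strand of GRCm39:
Nfkb2 first start, chr19:46293127-46293156: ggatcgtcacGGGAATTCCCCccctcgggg
Nfkb2 first start, chr19:46293155-46293184: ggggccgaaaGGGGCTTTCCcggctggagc

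At the second start of Nfkb2 a match lay at base -236, in an intron of the longer transcripts, and another at base 11 after the start. The third start lies downstream, and its window held the latter site at base -225. The upstream bases of the second start are given up to the first annotated exon base, followed by the shared site:
Nfkb2 second start, upstream, chr19:46293884-46294110: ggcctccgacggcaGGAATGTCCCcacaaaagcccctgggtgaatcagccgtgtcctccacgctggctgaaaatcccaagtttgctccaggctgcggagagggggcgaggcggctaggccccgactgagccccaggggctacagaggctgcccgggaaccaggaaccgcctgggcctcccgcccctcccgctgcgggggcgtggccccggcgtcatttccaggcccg
Nfkb2 second start, shared site, chr19:46294134-46294163: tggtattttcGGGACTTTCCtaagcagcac

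For Rela on the same chromosome and Tnfrsf1b on chromosome 4 no match was found in the 300 bases around the start, nor at the starts of Tnfrsf1a, Traf2 and Ikbkg (4 starts). The bases upstream of the earliest annotated exon are printed for Rela, the partner gene of the classical branch, and for Tnfrsf1b, which varied most between libraries, the latter from the minus strand:
Rela, chr19:5687319-5687492: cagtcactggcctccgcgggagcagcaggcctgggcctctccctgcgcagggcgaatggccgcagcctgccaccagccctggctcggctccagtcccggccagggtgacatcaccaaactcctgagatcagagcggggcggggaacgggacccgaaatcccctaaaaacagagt
Tnfrsf1b, chr4:144973478-144973690: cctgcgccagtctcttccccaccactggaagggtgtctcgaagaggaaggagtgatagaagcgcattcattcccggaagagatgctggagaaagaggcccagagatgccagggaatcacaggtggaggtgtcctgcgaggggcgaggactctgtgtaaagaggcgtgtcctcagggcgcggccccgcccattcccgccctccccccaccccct

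By this search 8.46% of the 32851 windows in the table held a match on either strand, as did 12.4% of the 8378 tested genes with an entry. In the list itself it was 1 of 6 genes (16.7%). Among the TNF response targets described further on, 9 of 13 genes had one (69.2%), and among the Rel and IkB family 5 of 10 (50%). The other pathway lists ran from 17.6% to 30%. The cell type marker lists ran from 9.09% (leukocyte, 1 of 11) to 33.3% (stromal and endothelial, 2 of 6). A match is a match of letters only, and its absence says nothing of binding elsewhere.

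Counted over the 7 libraries other than zinc 3, Tnfrsf1a was the most abundant of the 10 genes per length of transcript, at 76.2 ± 8.45 CPM per kb (SD, n = 7). Rela (38.3 ± 2.97 CPM per kb), Relb (36.8 ± 3.57 CPM per kb) and Nfkb2 (36.0 ± 2.49 CPM per kb) came next and did not differ beyond their spread. Nfkb1 stood at 23.0 ± 3.16 CPM per kb and Tnfrsf1b at 10.2 ± 2.38 CPM per kb, so the gene for TNFR2 was well under that for TNFR1. The signalling genes were lowest, with Ikbkb at 5.73 ± 0.693, Tradd at 4.34 ± 0.381, Traf2 at 4.28 ± 0.508 and Ikbkg at 2.59 ± 0.340 CPM per kb. Tradd and Traf2 overlapped within their spread. The order depends on the length used: the canonical Nfkb2 transcript is 6754 bases long and its coding part 2697, and per kb of coding sequence Nfkb2 (90.1 CPM per coding kb) and Relb (74.5) came before Rela (63.2). Across these 7 libraries the coefficient of variation was 6.92% for Nfkb2, 7.75% for Rela, 9.70% for Relb and 13.7% for Nfkb1. Tnfrsf1b was the most variable of the list at 23.2%. The median over all genes tested was 18.4%, but it was not matched for level. Nfkb2, Rela, Relb and Nfkb1 lay between the percentiles 93.2 and 98.0 of level.

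**Figure D1:**
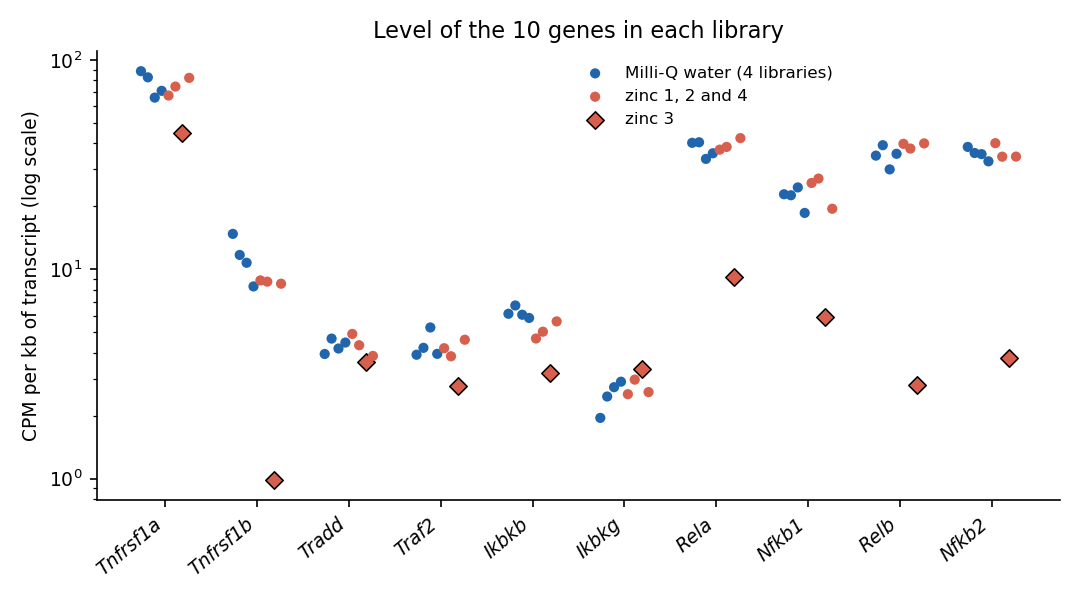
Level of the 10 genes in each library, in CPM per kb of canonical transcript on a log axis, with blue circles for the 4 Milli-Q water libraries, orange circles for zinc 1, 2 and 4, and a diamond for zinc 3. Zinc 3 lies apart and low for Tnfrsf1b, Rela, Nfkb1, Relb and Nfkb2, while Tradd, Traf2, Ikbkb and Ikbkg lie within 2-fold of the nearest other library.

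Of the receptors, Tnfrsf1a (ENSMUSG00000030341, chr6:125325566-125339632, plus strand) encodes the death-domain receptor found on most cells. It was at 192, 179.9, 144 and 155 CPM in the water libraries and at 147, 162, 97.7 and 179 CPM in zinc 1 to 4. The groups overlapped, with zinc 3 the lowest of all. Its log2 fold change was -0.20 (SE 0.200, edgeR adjusted p = 0.688) and -0.04 without zinc 3.

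Tnfrsf1b (ENSMUSG00000028599, chr4:144938938-144973477, minus strand) encodes TNFR2, which lacks a death domain and recruits TRAF2 directly. It was at 72.5, 57.5, 52.8 and 40.7 CPM in water and at 43.5, 42.9, 4.84 and 41.9 CPM in zinc, where the value of zinc 3 rests on 69 counts. The zinc libraries other than zinc 3 lay close together within the low end of the water range. Its log2 fold change of -0.75 was the largest in size among the 10 genes, with an SE of 0.504, an unadjusted p of 0.166 and an edgeR adjusted p of 0.558. Without zinc 3 it was -0.38 (SE 0.167), the unadjusted p was 0.0398 and the edgeR adjusted p 0.602. Relative to Tnfrsf1a, per kb, Tnfrsf1b stood at 0.104 to 0.167 in the 7 other libraries and at 0.0219 in zinc 3.

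The adaptor genes differed little between the groups. Tradd (ENSMUSG00000031887, chr8:105984883-105996354), whose product binds the death domain of TNFR1, ran from 6.84 to 8.10 CPM in water and from 6.25 to 8.53 CPM in zinc, with zinc 3 lowest by a small margin (log2 fold change -0.05, SE 0.170, and 0.02 without zinc 3). Traf2 (ENSMUSG00000026942, chr2:25406097-25436987), whose product is a RING-domain adaptor that brings the ubiquitin ligases cIAP1 and cIAP2, ran from 12.03 to 16.2 CPM in water and from 8.49 to 14.2 CPM in zinc (log2 fold change -0.17, SE 0.186, and -0.03 without zinc 3). Neither passed an unadjusted p of 0.05, with or without zinc 3.

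Ikbkb (ENSMUSG00000031537, chr8:23148709-23196607) encodes IKK-beta, the kinase of the classical branch. Its level was 22.0, 24.1, 21.8 and 21.0 CPM in water and 16.8, 18.1, 11.5 and 20.2 CPM in zinc. All 4 zinc libraries were below all 4 water libraries, and this held without zinc 3. The log2 fold change was -0.42 (SE 0.173), the unadjusted p 0.0346 and the edgeR adjusted p 0.485. Without zinc 3 these were -0.27 (SE 0.129), 0.0556 and 0.622, so the difference did not pass the correction over all genes in either fit. Ikbkb was the only one of the 10 genes whose groups did not overlap; among all genes tested 3.12% lay lower in zinc without overlap, and 3.99% did without zinc 3.

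Ikbkg (ENSMUSG00000004221, chrX:73436216-73500393) encodes NEMO, the regulatory subunit that binds ubiquitin chains. It ran from 6.50 to 9.67 CPM in water and from 8.43 to 11.2 CPM in zinc, with zinc 3 the highest library (log2 fold change 0.19, SE 0.181, edgeR adjusted p = 0.659, and 0.12 without zinc 3). The gene is covered in part by exons of Fam3a and G6pdx on the other strand, which share 204 and 526 of its exon bases. They held 1457 and 2047 counts against 922 for Ikbkg. In zinc 3 Fam3a was also highest (21.8 CPM against 10.2 to 14.1 CPM), while G6pdx was lowest (14.2 CPM against 17.3 to 23.3 CPM). Whether the counting used strand is not stated, so the level of Ikbkg is uncertain. The ratio of Ikbkb to Ikbkg, per kb, was 1.69 to 3.15 in the 7 other libraries and 0.957 in zinc 3.

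Rela (ENSMUSG00000024927, chr19:5687493-5698161) encodes the transactivating p65 subunit. It was at 109, 109.9, 91.6 and 97.4 CPM in water and at 101, 105, 25.0 and 115 CPM in zinc. Only zinc 3 was outside the common range, 3.67-fold below the lowest other library. The log2 fold change was -0.24 (SE 0.369, edgeR adjusted p = 0.800) and 0.07 without zinc 3.

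Nfkb1 (ENSMUSG00000028163, chr3:135290264-135397742) encodes p105, the precursor of p50. It was at 107, 106, 116 and 87.5 CPM in water and at 122, 128, 27.7 and 91.6 CPM in zinc. Without zinc 3, whose level was 3.16-fold below the lowest other library, the groups overlapped with zinc 1 and 2 at the top. The log2 fold change was -0.18 (SE 0.371, edgeR adjusted p = 0.854) and 0.13 without zinc 3.

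Relb (ENSMUSG00000002983, chr7:19339017-19363425) encodes the p52 partner of the alternative branch. It was at 119, 133, 102 and 121 CPM in water and at 135, 128, 9.54 and 136 CPM in zinc. Zinc 3, with 136 counts, was 10.7-fold below the lowest other library, and the other zinc libraries lay at the upper end of the water range or just above it. The log2 fold change was -0.22 (SE 0.571, edgeR adjusted p = 0.887), and without zinc 3 it was 0.17.

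Nfkb2 (ENSMUSG00000025225, chr19:46292759-46303812) encodes p100, the precursor of p52, and had the highest CPM of the list. It was at 259.7, 243, 239.9 and 222 CPM in water and at 271, 233, 25.3 and 233 CPM in zinc. Zinc 3 was 8.75-fold below the lowest other library, whereas zinc 1, 2 and 4 lay within or just above the water range. The log2 fold change was -0.34 (SE 0.517, edgeR adjusted p = 0.796) and 0.03 (SE 0.119) without zinc 3. Exons of Psd and 4833438C02Rik on the other strand share 1933 and 1081 of the 7901 exon bases of Nfkb2. They held 48 and 1034 counts against 21992 for Nfkb2. Whether the counting used strand is not stated, so a loss of Nfkb2 counts in the shared bases cannot be judged from these values.

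In the comparison of zinc with water none of the 10 genes passed the edgeR threshold of an adjusted p of 0.05. The same was true of the table as a whole, where 0 of 10707 genes tested passed (0%), the smallest adjusted p was 0.485, and DESeq2 called 4 genes, none of them in the list. At an unadjusted p under 0.05, 1 of the 10 was lower (Ikbkb) and 0 were higher, beside 3.78% lower and 6.42% higher of all genes tested. Without zinc 3, 1 of 10 was lower (Tnfrsf1b) and 0 higher, beside 3.72% and 4.34%. With 10 genes a single one is the smallest count above 0, so these counts do not set the list apart from the whole table. By direction alone, 9 of 10 fitted values were lower in zinc beside 49.2% of all genes, and 4 of 10 without zinc 3 beside 49.4%. The median log2 fold change of the list was -0.21 with all libraries (0.0062 for all genes tested) and 0.03 without zinc 3 (0.0042), so the lower direction of the list as a whole rested on that library.

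**Figure D2:**
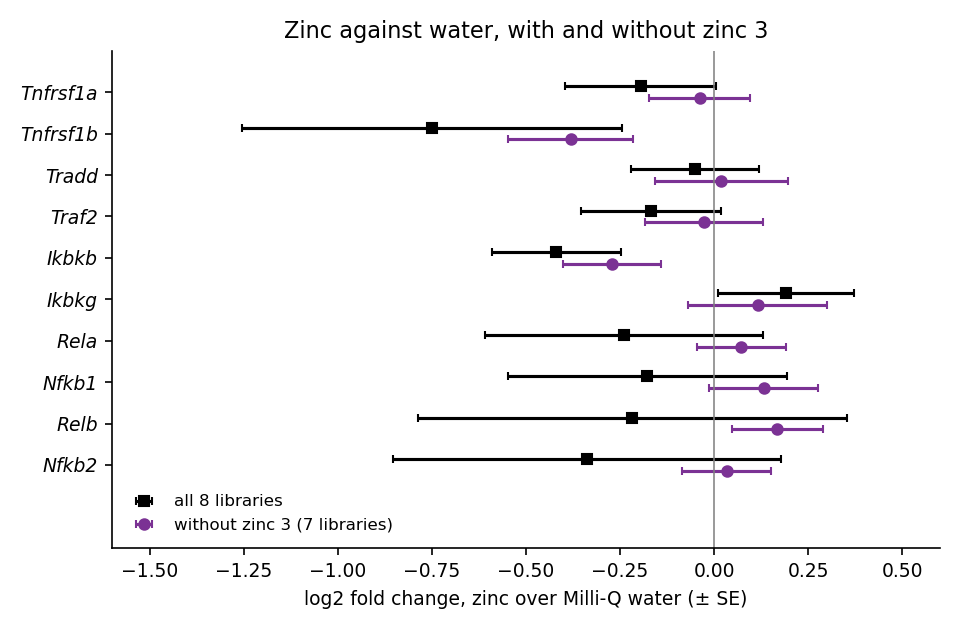
Fitted log2 fold change, zinc over Milli-Q water, of the 10 genes with SE bars, from all 8 libraries (black squares) and from 7 without zinc 3 (purple circles). Without zinc 3 the SE of Relb, Nfkb2, Rela, Nfkb1 and Tnfrsf1b narrowed, and Rela, Nfkb1, Relb, Nfkb2 and Tradd lay on the other side of 0, while Ikbkb and Tnfrsf1b remained below it.

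The 10 genes were not evenly low in zinc 3. Of the list, 9 genes were lowest in zinc 3, which was the lowest library for 30% of all genes tested, and 1, Ikbkg, was highest, as were 29.8% of all genes. In 5 of the 10, zinc 3 was over 2-fold below the lowest other library, beside 6.14% of all genes tested (a level under 3 counts in zinc 3 was set to 3 counts). These were Relb, Nfkb2, Tnfrsf1b, Rela and Nfkb1, with the mean of the other 7 libraries 13.1-fold, 9.59-fold, 10.4-fold, 4.17-fold and 3.91-fold above zinc 3. The remaining genes ran from 1.79-fold for Ikbkb to 0.774-fold for Ikbkg. Among all genes tested, the log2 difference of zinc 3 from the mean of the others (log2(CPM + 1), median 0.03) placed Relb at the percentile 0.364, Nfkb2 at 0.579 and Tnfrsf1b at 0.635, with Rela at 2.20 and Nfkb1 at 2.44. Tnfrsf1a, Ikbkb, Traf2 and Tradd were between the percentiles 12.5 and 34.0.

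**Figure D3:**
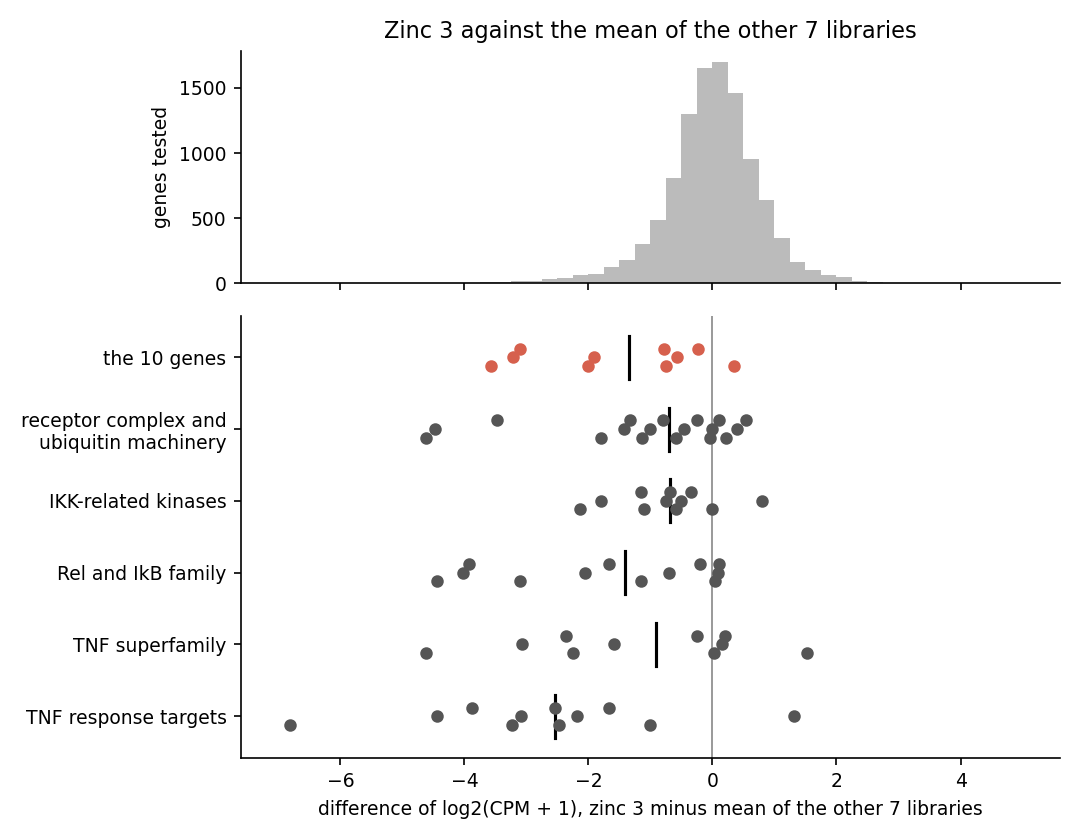
Difference of log2(CPM + 1), zinc 3 minus the mean of the other 7 libraries, as a histogram of all 10707 genes tested (top, the lowest values collected in the leftmost bar) and as points for the tested genes of each list with the median as a black line (bottom). The 10 genes spread from -3.57 for Relb to 0.34 for Ikbkg, and the medians of all 6 lists lie below 0, that of the TNF response targets lowest.

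The genes named as induced, Nfkb2 and Relb, were set against the other 8 within each library. The other 8 hold Tnfrsf1b, Rela and Nfkb1, which were also low in zinc 3 (10.4-fold, 4.17-fold and 3.91-fold under the mean of the rest), so the reference was lower there too. The mean log2 level, log2(CPM + 1), of Nfkb2 and Relb minus that of the other 8 was 2.28, 2.28, 2.13 and 2.30 in water and 2.49, 2.32, 0.05 and 2.38 in zinc. Zinc 1, 2 and 4 lay slightly above all water libraries and zinc 3 far below them. The difference of the group means, zinc minus water, was -0.44, and 0.15 without zinc 3. No untreated mice were part of the series, so the response of these genes to TNF itself was not measured here.

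Pairs of one branch and the other shifted within zinc 3. The ratio of Nfkb2 to Nfkb1, per kb, was 1.27 to 1.77 in the other 7 libraries and 0.637 in zinc 3, where the order of these 2 precursors was turned. The ratio of Relb to Rela was 0.869 to 1.07 against 0.306. Within a branch the ratios shifted less. In the alternative branch Nfkb2 over Relb was 0.865 to 1.18 in the 7 and 1.33 in zinc 3, just above that range. In the classical branch Nfkb1 over Rela was 0.460 to 0.731 in the 7 and 0.641 in zinc 3, within that range. In zinc 3 Tnfrsf1a remained the highest of the list at 44.9 CPM per kb, followed by Rela at 9.19 and Nfkb1 at 5.89, with Nfkb2 at 3.75 and Relb at 2.81 CPM per kb.

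**Figure D4:**
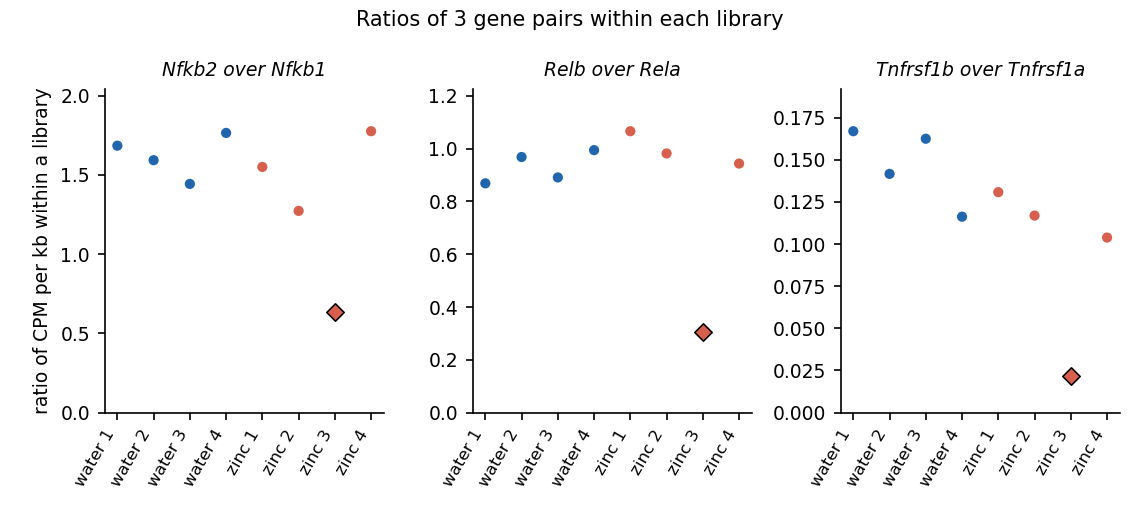
Ratio of CPM per kb within each library for 3 pairs of genes on linear axes that start at 0, with blue circles for water, orange circles for zinc 1, 2 and 4 and a diamond for zinc 3. Zinc 3 is the lowest library for each pair, at 0.637, 0.306 and 0.0219.

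The further genes of the pathway were taken as 5 lists without the 10 genes. In none did a gene pass the edgeR adjusted p of 0.05. Among all genes tested 49.2% had a fitted value lower in zinc, and 3.78% were lower and 6.42% higher at an unadjusted p under 0.05 in edgeR. For 6.14% zinc 3 was over 2-fold below the lowest other library. The counts of each list below are to be read beside these shares. Of 20 genes for the TNF receptor complex and its ubiquitin machinery 18 were tested, 11 had a fitted value lower in zinc, none had an unadjusted p under 0.05, and the median log2 fold change was -0.11 (0.05 without zinc 3). Without zinc 3, 3 genes were lower at an unadjusted p under 0.05 in edgeR, beside 3.72% of all genes. Their groups did not overlap with or without zinc 3. Of all genes tested 3.12% lay lower in zinc without overlap, and 3.99% did without zinc 3. The 3 genes were Birc3 (log2 fold change -0.26, unadjusted p = 0.0360 in edgeR), Casp8 (-0.29, unadjusted p = 0.0376) and Ripk1, the kinase scaffold of the complex (-0.25, unadjusted p = 0.04997). None passed the adjustment. Ripk1 falls outside the naming rule and was named after its values were seen. Birc3, which encodes the ubiquitin ligase cIAP2, was the highest of them, at 246 ± 13.9 CPM in water (SD, n = 4) and 155 ± 97.3 CPM in zinc (SD, n = 4), with zinc 3 at 9.19 CPM against 198 to 257 CPM elsewhere and a log2 fold change of -0.66. The smallest p in each direction belonged to Tab1, a partner of the kinase TAK1 (log2 fold change 0.37, unadjusted p = 0.0873 in edgeR, and 0.25 without zinc 3), and Casp8, the initiator caspase of the death-inducing complex (-0.53, unadjusted p = 0.0690 in edgeR). In 6 of the 18 genes zinc 3 was over 2-fold below the lowest other library.

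Among 11 IKK-related kinases and genes of the alternative branch, all tested, 10 had a lower fitted value, with a median of -0.28 (-0.17 without zinc 3) and none at an unadjusted p under 0.05. Tbk1, an IKK-related kinase, was the highest at 71.6 ± 4.08 CPM in water and 56.0 ± 24.7 CPM in zinc (SD, n = 4 each), with a log2 fold change of -0.36 and -0.07 without zinc 3. Tank, which binds it, had a log2 fold change of -0.48 (unadjusted p = 0.0641 in edgeR) and -0.27 without zinc 3. Ikbip, which codes for an IKK-beta interacting protein, was at 0.15 (unadjusted p = 0.648 in edgeR), but zinc 3 was its highest library, at 6.67 CPM against 2.53 to 4.58 CPM, and without it the direction turned (-0.20). In 3 of the 11, zinc 3 was over 2-fold below all others.

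In the Rel and IkB family all 12 genes were tested, 9 had a lower fitted value and the median was -0.28 (-0.03 without zinc 3). Nfkbia, which encodes IkB-alpha, was at 498 ± 27.4 CPM in water and 352 ± 218 CPM in zinc (SD, n = 4 each), with zinc 3 at 28.6 CPM, and its log2 fold change was -0.50 (-0.11 without zinc 3). Nfkbiz, which encodes the nuclear co-regulator IkB-zeta, was the only one at an unadjusted p under 0.05, with 38.9 ± 8.89 CPM in water and 15.9 ± 9.60 CPM in zinc (SD, n = 4 each). Its log2 fold change was -1.30 with an unadjusted p of 0.00559 in edgeR. It was also lower without zinc 3 (-1.06), and its p did not pass the adjustment. The groups overlapped with and without zinc 3. Zinc 4, at 28.5 CPM, lay within the water range of 26.8 to 46.0 CPM, while zinc 1 and 2 were at 9.09 and 18.0 CPM. Nkiras1, which encodes a Ras-like protein that binds IkB, had the smallest p among those with a higher value (0.28, unadjusted p = 0.321 in edgeR, and 0.31 without zinc 3). In 5 of the 12 genes zinc 3 was over 2-fold below the rest.

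Of 20 ligands and other receptors of the TNF superfamily 10 were tested, 7 of them with a lower fitted value and a median of -0.31 (-0.07 without zinc 3). Ltbr, the lymphotoxin-beta receptor that feeds the alternative branch, was the highest at 85.8 ± 4.77 CPM in water and 74.4 ± 6.12 CPM in zinc (SD, n = 4 each), and unlike Tnfrsf1b it was close to the other libraries in zinc 3, at 68.8 CPM. Its log2 fold change was -0.21 (unadjusted p = 0.135 in edgeR) and -0.16 without zinc 3. Tnfrsf19, a receptor of crypt stem cells, was at 0.78 (unadjusted p = 0.0564 in edgeR) and at 0.85 without zinc 3 (unadjusted p = 0.0446). Tnf itself, named after its values were seen, had 1 count in zinc 3, 19.3 to 23.0 CPM in the other zinc libraries and 25.4 to 34.7 CPM in water, so the groups did not overlap with or without zinc 3. Its log2 fold change without zinc 3 was -0.42 (edgeR unadjusted p = 0.0119, adjusted p = 0.538), and -0.84 with all 8 libraries (unadjusted p = 0.282).

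The list of TNF response targets held 16 genes, of which 11 were tested. All 11 had a lower fitted value in zinc, beside 49.2% of all genes tested, with a median of -0.87. Tnfaip2 (-0.0017) and Cxcl10 (-0.07) were close to 0. Without zinc 3, 9 of 11 were lower, beside 49.4% of all genes, and the median was -0.73. At an unadjusted p under 0.05 in edgeR 2 were lower (Cxcl2 and Zc3h12a), beside 3.78% of all genes. Without zinc 3 this held for 6 of them, beside 3.72% of all genes. Among the 6 was Tnfaip2 (-0.97, unadjusted p = 0.0476 in edgeR), a gene of low level. Irf1, an NF-kB and interferon target, was the highest at 156 ± 11.5 CPM in water and 85.2 ± 44.2 CPM in zinc (SD, n = 4 each), with a log2 fold change of -0.87 (-0.55 without zinc 3, unadjusted p = 0.00186 in edgeR). Cxcl2, a neutrophil chemokine, had a log2 fold change of -2.36 (unadjusted p = 0.0143 in edgeR, and -1.91 without zinc 3). It held few counts in zinc 1, 2 and 3 (3, 13 and 0). Zinc 4 lay within the water range for Cxcl2 (1.94 against 1.68 to 7.25 CPM) and Zc3h12a (80.1 against 71.5 to 118 CPM). The groups did not overlap in 2 of the 11 targets, with or without zinc 3. Among all genes tested 3.12% lay lower in zinc without overlap, and 3.99% did without zinc 3. In 8 of the 11, zinc 3 was over 2-fold below the lowest other library, beside 6.14% of all genes tested. Tnfaip2 went the other way, at 6.03 CPM in zinc 3 against 1.04 to 3.76 CPM in the other libraries. For Sod2 zinc 3 was 1.35-fold below the lowest other library. The 10 genes of the list thus had a smaller median difference than these targets, -0.21 against -0.87, and without zinc 3 the medians were 0.03 and -0.73; the difference between the lists was not tested. The stem cell marker, Muc2 and Cd74 values given at the outset differed between the same 7 libraries, and their part in the lower targets was not tested.

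The genes most like Nfkb2 over the 8 libraries, by Pearson's r of log2(CPM + 1) among 10697 genes, were Tnfaip3, which encodes the deubiquitinase A20 (r = 0.9995), Icam1 (0.998), Efhd2 (0.997), Arhgap8 (0.997) and Tlr2 (0.997). Without zinc 3 the same genes had r of 0.942, 0.752, 0.617, 0.683 and 0.314 over 7 libraries. For Relb they were Nectin2 (0.998), Arhgap8 (0.996), Wars1 (0.996), Bcl3 (0.995) and Tapbp (0.994), which without zinc 3 had 0.817, 0.654, 0.572, 0.597 and 0.957. Of the first 100 genes for each, 68 were shared. Both rankings held zinc 3, where both genes were lowest, and the sharing without it was not counted. Nfkb2 and Relb themselves had r of 0.992 over the 8 libraries and 0.145 without zinc 3. Rela and Relb had 0.995 and 0.736. All of the r named were lower without zinc 3, the library where Tnfaip3 was at 2.46 CPM (35 counts) and Icam1 had 0 counts, which allows up to 0.211 CPM.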

How the data were processed

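PCs were sorted by FACS from 4 mice on Milli-Q water and 4 on zinc, and groups were taken from the deposited labels. The deposited values, 1 column per library, were whole-number counts by Ensembl identifier, not normalized, made by the authors from stranded mRNA libraries. The submitters' processing notes name FastQC 0.12.0, STAR 2.7.10a, DESeq2 and mm39; the counter, annotation release, strand setting and rule for reads with several matches are not given in the sources used here. Symbols, positions and lengths came from GENCODE M39 on GRCm39 (54749 of 55414 identifiers matched).

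Library totals were 10623658 to 15101627 counts, and a library at 0 could hold up to 3 counts, equal to 0.179 to 0.369 CPM (counting error only). Zinc and water were compared by the quasi-likelihood test of edgeR 4.0.16 in R 4.3.3, with TMM factors, the default filter (10707 genes, 99.89% of counts, all 10 genes of the list among them) and Benjamini-Hochberg adjustment over all genes tested at 0.05. The biological coefficient of variation was 0.269. The steps were tested on simulated counts. CPM refer to TMM-scaled library sizes, CPM per kb to the canonical transcript, and scores to log2(CPM + 1). Each library is 1 mouse, but whether mice shared a cage or day is not stated.

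The comparison was repeated with scaling by DESeq2 size factors or by upper quartiles, with Defa genes removed, with all genes kept, with genes at 1 CPM in 4 libraries and 100 counts in total, with DESeq2 1.42.0, with limma-voom 3.58.1 and sample weights, with the replicate block, other pseudocounts (0.1 and 5), each library left out in turn, and Milli-Q water 3 and 4 left out together, with and without zinc 3. Of the pathway lists, the gene of highest level and the gene of smallest p in each direction were named, beside the 5 genes most like Nfkb2 and Relb. The 10 genes and the lists were chosen with earlier results of these data known.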

Additional observations from a re-analysis of the deposited data

Results flagged for a closer look

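In 40 groups of 4 libraries (20 measures in 2 groups: the 10 genes, their mean, the pathway lists, ratios and the score of Nfkb2 and Relb against the rest), a library lay far from the other 3 in 11 cases, where chance would give about 2 (1 in 20). In the zinc group it was zinc 3 in every such case. It was at 4.84 CPM for Tnfrsf1b, 24.98 CPM for Rela, 9.54 CPM for Relb and 25.3 CPM for Nfkb2. The mean log2(CPM + 1) in zinc 3 was 4.02 for the 10 genes, 4.02 for the TNF receptor complex and its ubiquitin machinery, 2.29 for the other ligands and receptors of the TNF superfamily and 1.56 for the TNF response targets. The ratio of Relb to Rela was 0.306 and the difference of Nfkb2 and Relb from the other 8 genes 0.0501. These measures share genes and 1 library, so they are not separate cases. In the water group the sole case was water 3, where the same difference was 2.13 beside 2.28 to 2.30 in the others.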

How the results depend on the processing

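None of the 10 genes passed the adjusted threshold in any of the 18 alternatives fitted. Ikbkb was lower in zinc in 18 of 18 (-0.53 to -0.27 on the log2 scale, unadjusted p under 0.05 in 11, smallest adjusted p 0.212), Tnfrsf1b and Tnfrsf1a were lower and Ikbkg higher in all 18. Over all genes DESeq2 called 4 where edgeR called 0 (1092 at an unadjusted p under 0.05).

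The median log2 fold change of the list, -0.21, was -0.0587 with limma-voom and -0.32 without Milli-Q water 3 and 4, and -0.0047 when zinc 3 was left out as well. It was -0.38 with the replicate block; the numbers did not pair the mice (correlations of -0.0275 to 0.0266), and the block changed no call. Leaving out 1 library gave -0.349 to 0.0260, the latter without zinc 3. The difference of Nfkb2 and Relb from the other 8 genes ran from -0.67 to 0.15 over the same omissions, again highest without zinc 3. Over these omissions the log2 fold changes ran from -0.134 to 0.0190 for Tradd, -0.412 to 0.0724 for Rela, -0.389 to 0.168 for Relb, -0.379 to 0.131 for Nfkb1 and -0.548 to 0.0331 for Nfkb2, each above 0 only without zinc 3. With limma-voom Tradd was at 0.0252 and Nfkb1 at 0.124. Without Milli-Q water 3 and 4 and zinc 3, Tradd was at 0.0201, Traf2 at 0.0550, Relb at 0.0823 and Nfkb1 at 0.0920. The low depth of Tradd and Ikbkg, 89 and 159 counts in zinc 3, limits their precision.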
